A study of Mus musculus with 6 samples.

Results

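CDK inhibitors, D cyclins and the retinoblastoma gene form the switch that lets a cell leave the G1 phase. They were examined here in LSK cells of mouse bone marrow, which lack lineage markers, carry Sca1 and c-Kit and include the hematopoietic stem cells and early progenitors. The 10 genes were the Cip/Kip inhibitors Cdkn1a, Cdkn1b and Cdkn1c, the INK4 inhibitors Cdkn2a, Cdkn2c and Cdkn2d, the D cyclins Ccnd1, Ccnd2 and Ccnd3, and Rb1. Every probe set whose platform annotation names 1 of these genes and no other was taken, which gave 23 of the 45037 probe sets that are not array controls, for 10 of 18193 genes. The D cyclins had 13 of them, the Cip/Kip inhibitors 5, the INK4 inhibitors 3 and Rb1 2.

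The study compared 3 SRF-null and 3 control arrays of sorted LSK cells from C57BL/6 mice. SRF-null mice were Srf flx/flx;Mx1-Cre, with both Srf alleles flanked by loxP sites, and control mice were Srf+/+;Mx1-Cre, so the Mx1-Cre transgene was present in both genotypes. Both also received pIpC, a double-stranded RNA that induces interferon and through it the Mx1 promoter, as 3 intraperitoneal injections of 200 µg every 2 days from 6 weeks of age, and LSK cells were sorted 35 days after the last injection. Each array holds RNA from pooled animals, and 30 ng of total RNA was amplified before hybridisation. The Mx1 promoter also acts outside blood cells, and no source used here states how complete the deletion was. In bulk RNA, fewer cells of a type and less RNA per cell cannot be told apart.

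In G1, D cyclins bind the kinases CDK4 and CDK6, and these complexes begin to phosphorylate the retinoblastoma protein RB, which otherwise holds E2F transcription factors inactive. INK4 proteins bind CDK4 and CDK6 and keep D cyclins off them, whereas Cip/Kip proteins bind whole cyclin and CDK complexes, above all those with CDK2. In hematopoietic stem cells, p57 (Cdkn1c), p27 (Cdkn1b) and p18 (Cdkn2c) are known for their part in restraining division. SRF is a transcription factor that drives growth factor-induced immediate early genes and actin cytoskeleton genes.

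The arrays had a median intensity of 218.4 to 270.2 in SRF-null and of 200.5 to 292.1 in control samples. Values below are log2(intensity + 16) after quantile normalization, called log2 signals, and every difference is SRF-null minus control on this scale. The stem and progenitor identity of the samples was checked on 8 of 10 defining genes that had a probe set of their own, and Kit, the c-Kit receptor, had log2 signals of 14.98, 14.90 and 14.81 on SRF-null arrays, against 15.44, 14.98 and 14.84 on control arrays. Ly6a, which encodes Sca1, has no probe set that names it alone and was not analysed here. The targeted gene, Srf, had 12.58, 12.43 and 12.80 on its brighter probe set on SRF-null arrays, against 13.04, 13.00 and 13.04 on control arrays, and its dimmer probe set differed by 0.10 (SE 0.35). No source used here places them inside or outside the deleted stretch, so they do not measure the deletion. Both genotypes hold 1 array that carries transcripts of 1 sex: Xist was at 5.03 on SRF-null replicate 1, against 15.13 to 16.24 on the other 5 arrays, and the Y-linked gene Eif2s3y was at 4.37 on control replicate 2, against 13.06 to 14.50 on the others. The counts over all probe sets, the Ccnd1 differences and the shifts between D cyclins are given with and without these arrays. Marker sums and marker differences were taken over all arrays only. With all arrays kept, sex content was not balanced between the genotypes. Eif2s3y was at 14.18 to 14.50 on SRF-null arrays and at most 14.04 on control arrays. Kdm5d, also Y-linked, was at 11.84 to 11.98 on SRF-null arrays and at most 10.57 on control arrays. The 3′ minus 5′ difference of the Actb control probe sets in log2(intensity + 16) before normalization, a measure of RNA integrity, was 1.00, 1.51 and 0.93 on SRF-null arrays, against 1.18, 1.45 and 1.35 on control arrays (exact permutation p = 0.4, on both sides, where 3 against 3 arrays cannot go below 0.1).

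By limma, 0 of the 23 member probe sets passed an adjusted p of 0.05, as did 0 of all 45037 probe sets (0.0%). An unadjusted p under 0.05 was found for 3 of the 23, all of Ccnd1 and all higher in SRF-null cells, and for 4.39% of all probe sets, 2.37% higher and 2.02% lower. With the replicate number as a block, 4 of the 23 had such a p, the added one being the dim Rb1 probe set, and the count over all probe sets was 3189, against 1975 without the block. In 4 of the 23, the 3 of Ccnd1 and the 1 of Cdkn2a, all SRF-null arrays lay above all control arrays, and in 0 they lay below. Of all probe sets, 9.24% had groups that did not overlap, 4.74% higher and 4.5% lower. The median difference over the 23 was 0.10, and 0.03 over the 20 left without Ccnd1, beside 0.00 over all probe sets. These counts changed when arrays were left out. Groups with fewer arrays separate more readily, and without any 1 array 15.9% to 24.9% of all probe sets did not overlap. A higher count of members without overlap is thus not a sign of dependence on 1 array. Without control replicate 1, 5 members had an unadjusted p under 0.05, as did 7.61% of all probe sets, and 8 did not overlap, as did 24.9% of all. Without SRF-null replicate 3, 7 members and 20.3% of all probe sets did not overlap. Without both arrays that carry transcripts of 1 sex, 1 member and 2.87% of all probe sets had an unadjusted p under 0.05.

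**Figure D1:**
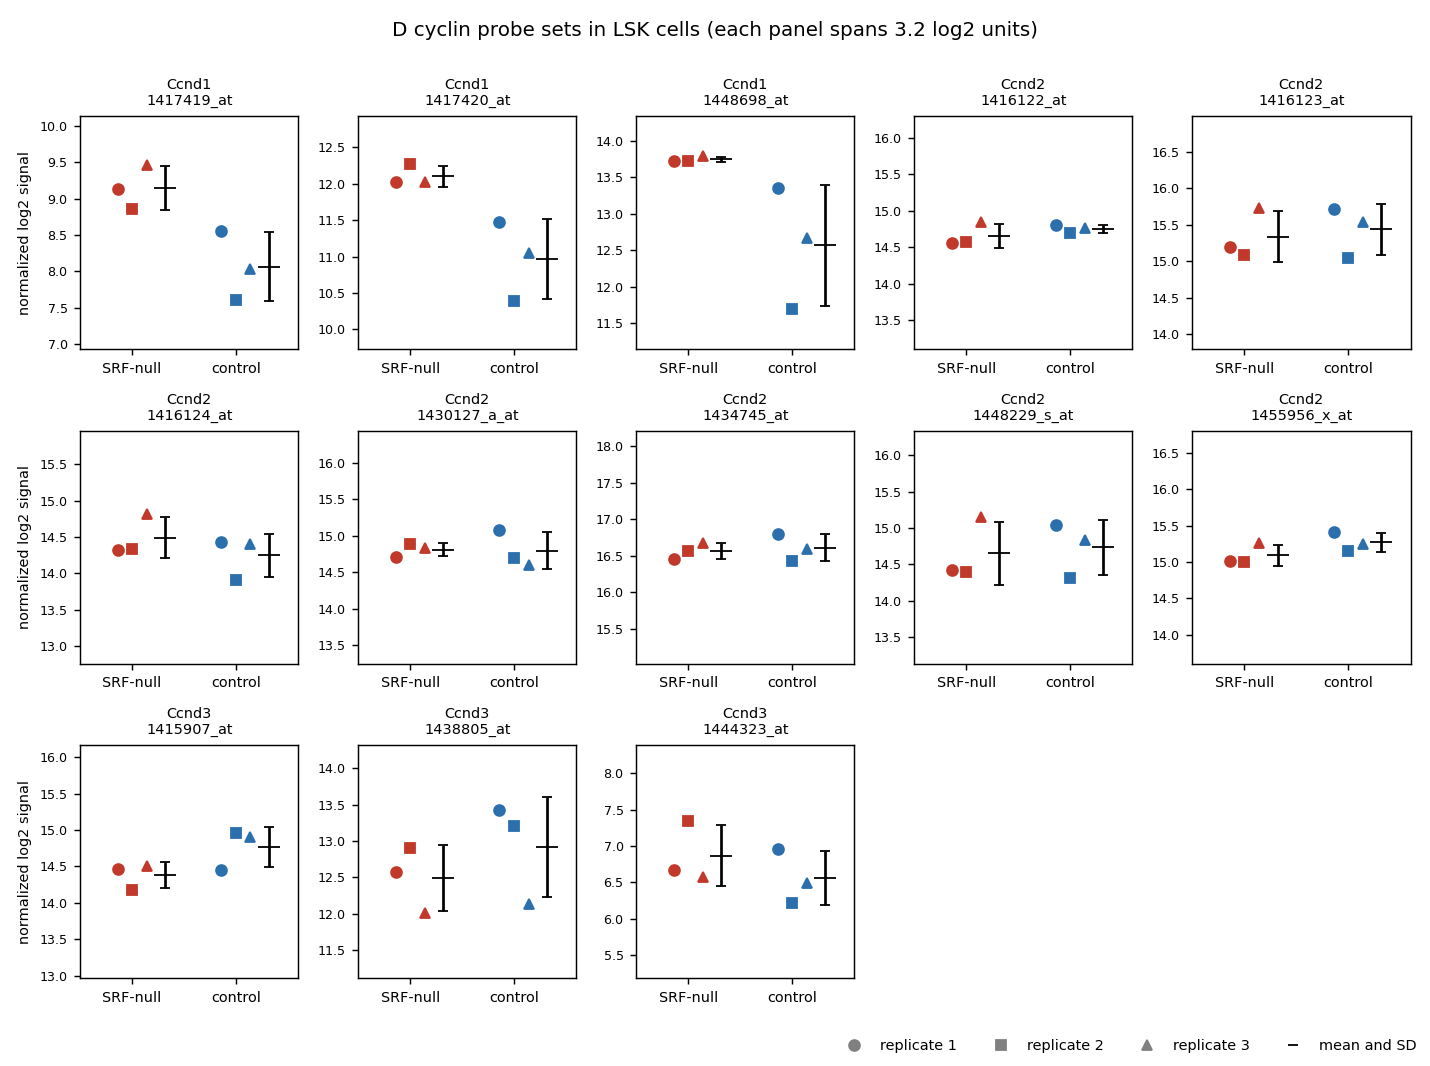
Normalized log2 signal (vertical axis) of each of the 13 D cyclin probe sets on the 3 SRF-null (red, left) and 3 control (blue, right) arrays, with the replicate number as the symbol and the mean and SD as bars. The genotypes separate in the 3 Ccnd1 panels and overlap in the 7 Ccnd2 and 3 Ccnd3 panels.

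Ccnd1, which encodes cyclin D1, the D cyclin best known for its induction by growth factors, was the member with the largest difference. On its brightest probe set, 1448698_at, the deposited intensities were 13464, 13197 and 13990.1 on SRF-null replicates 1 to 3, against 10549, 3286 and 6533 on control replicates 1 to 3. In log2 signal these were 13.72, 13.72 and 13.79 in SRF-null cells and 13.35, 11.69 and 12.67 in control cells. The SRF-null arrays lay close together and the controls were spread over more than a 3-fold range, so the distance between the genotypes was set mainly by how low each control lay, control replicate 2 being the lowest. The means were 13.74 ± 0.04 in SRF-null and 12.57 ± 0.83 in control cells (SD, n = 3 each). The difference was 1.18 (SE 0.41, 95% interval 0.17 to 2.18) and a fold of 2.26 (limma adjusted p = 1.00).

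The other Ccnd1 probe sets had the same order of groups. On 1417420_at the log2 signals were 12.03, 12.27 and 12.02 in SRF-null cells, against 11.48, 10.39 and 11.04 in control cells, a difference of 1.13 (SE 0.29, limma adjusted p = 1.00). On the dimmest, 1417419_at, they were 9.13, 8.86 and 9.46 in SRF-null cells, against 8.56, 7.61 and 8.03 in control cells, a difference of 1.08 (SE 0.29, limma adjusted p = 1.00). All 3 probe sets thus gave a fold between 2.12 and 2.26, and in each control replicate 1 was the highest control and control replicate 2 the lowest. Probe sets of 1 gene read the same RNA on the same arrays and are not independent. Among the 2366 genes that had exactly 3 probe sets of their own, 13 (0.549%) had all of them higher in SRF-null cells with no overlap, and 4 (0.169%) had all of them lower. All 3 differences reached 1 in 3 of these 2366 genes (0.127%). These counts were not planned beforehand, and Ccnd1 is itself among the 13 and among the 3, so they are a description and not separate evidence.

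As every SRF-null array lay above every control array on each Ccnd1 probe set, any pairing of the arrays gives a higher SRF-null value in every pair. Only the sizes of the pair differences add to this. On 1448698_at the pair differences were 0.37, 2.03 and 1.12 for replicates 1, 2 and 3, so the first pair differed least. Without control replicate 2 the differences of the 3 probe sets were 0.73, 0.84 and 0.85, from the brightest to the dimmest. Without both arrays that carry transcripts of 1 sex they were 0.75, 0.88 and 0.86, with 2 arrays left in each genotype, and 1 of the 3, 1417420_at, then had an unadjusted p under 0.05. The arrays left were still not balanced in sex content. The Y-linked gene Kdm5d was at 11.84 and 11.97 on those of SRF-null cells, against 10.54 and 10.57 on those of control cells. With all arrays kept, Kdm5d and Eif2s3y were higher on every SRF-null array than on every control array. The controls of Eif2s3y had the order of the Ccnd1 controls, with replicate 1 highest and replicate 2 lowest. Those of Kdm5d did not share it in log2 signal, as replicate 3 lay slightly above replicate 1. The part of sex in the Ccnd1 difference was not tested.

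Summed levels of 2 marker lists of other cell types also separated the genotypes. The summed intensity of 8 of 8 stromal and endothelial markers was 21632 to 32155 on SRF-null arrays, against 16777 to 19405 on control arrays. Most of that sum was Pdgfrb, a receptor of mural and stromal cells, at 12791 to 28124 over the 6 arrays. Which cells carried its RNA was not tested. The collagen gene Col1a2 was lower in SRF-null cells, with intensities of 133.8, 320.3 and 351.5, against 778.1, 2230.4 and 419.2 in control cells. The sum of 7 of 10 T and NK cell markers was 658.5 to 943.1 on SRF-null arrays, against 304.4 to 412.4 on control arrays, with Cd3g under an intensity of 16 on all 6 arrays. Cd4 was the largest part of that sum, with 458.2, 568.9 and 466.4 on SRF-null arrays, against 157.5, 263.2 and 245.9 on control arrays. It was the only 1 of the 7 whose groups did not overlap. The sum of 9 of 9 monocyte and macrophage markers was 27563 to 36408 on SRF-null arrays and 10480 to 33327 on control arrays. Csf1r was the largest part of that sum on each array, with 4627 of the 10480 on control replicate 1. Taken gene by gene, 8 of the 9 were higher in SRF-null cells, as were 48.6% of all genes, and Cd14 was lower (difference −0.66, SE 1.36). An unadjusted p under 0.05 was found by limma for 3 of the 9, and for 4.95% of all genes. The differences of those 3 were larger than that of Ccnd1. The macrophage receptor gene Mrc1 had intensities of 330.0, 1111.1 and 772.1 on SRF-null arrays, against 271.9, 124.4 and 83.0 on control arrays (difference 2.08, SE 0.55). C1qa, a complement gene of macrophages, had 110.6, 319.2 and 455.5 on SRF-null arrays, against 107.6, 46.1 and 64.1 on control arrays (difference 1.70, SE 0.56). The groups of Mrc1 and C1qa did not overlap, and 5.16% of all genes were higher in that way. Adgre1, which encodes F4/80, differed by 1.40 (SE 0.57) and the complement gene C1qb by 1.87 (SE 0.89), both with groups that overlapped in log2 signal. The sums of B cell, granulocyte, erythroid, megakaryocyte and LSK markers overlapped between the genotypes. The part of such cells in the Ccnd1 difference was not tested.

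Ccnd2, which encodes cyclin D2, did not differ between the genotypes beyond its spread on any of its 7 probe sets. The brightest, 1434745_at, had log2 signals of 16.45, 16.57 and 16.67 in SRF-null cells, against 16.80, 16.43 and 16.59 in control cells. The groups interleave, and the difference of −0.05 (SE 0.15) had a 95% interval of −0.42 to 0.32. The other 6 probe sets gave differences between −0.18 and 0.24, 4 of them negative (limma adjusted p = 1.00 for each). Over all 7 the intervals reached from −0.80 to 0.78, so the differences estimated for Ccnd1 lay outside every one of them. The intervals of the Ccnd1 probe sets begin at 0.42, 0.37 and 0.17, however, and all overlap the Ccnd2 interval that reaches 0.78. The one that begins at 0.17, of the brightest Ccnd1 probe set, overlaps every Ccnd2 interval, that of the brightest probe set included. A difference between the 2 genes is thus not shown by these intervals. SRF-null replicate 3 and control replicate 1 were the high arrays of their genotypes on 1416123_at and 1448229_s_at, with 15.73 and 15.16 in SRF-null replicate 3 against 15.72 and 15.04 in control replicate 1.

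Ccnd3, which encodes cyclin D3, the D cyclin that lymphoid progenitors are known to need, was lower on its brighter probe sets without passing. On 1415907_at the log2 signals were 14.46, 14.17 and 14.50 in SRF-null cells, against 14.45, 14.96 and 14.90 in control cells. Control replicate 1 lay among the SRF-null arrays and the other controls above them. The difference was −0.39 (SE 0.19, 95% interval −0.86 to 0.08, limma adjusted p = 1.00). On 1438805_at it was −0.42 (SE 0.41), with signals of 12.57, 12.91 and 12.01 in SRF-null cells against 13.42, 13.21 and 12.13 in control cells, and all 3 number pairs were lower. It was −0.17 without control replicate 1, −0.18 without SRF-null replicate 3, −0.28 without control replicate 2 and −0.82 without control replicate 3. The dim 1444323_at, at 6.22 to 7.35 over the 6 arrays, differed by 0.31 (SE 0.29), the opposite sign, and by 0.071 without SRF-null replicate 2. Ccnd3 lies on chromosome 17 like Srf, with 25 protein-coding genes between them in the RefSeq gene order, and the part of this position in its values was not tested.

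The D cyclins were also compared with each other within each array, a comparison chosen after their values were seen. The log2 signal of Ccnd1 minus that of Ccnd2, on their brightest probe sets, was −2.73, −2.84 and −2.89 on SRF-null arrays, against −3.45, −4.74 and −3.93 on control arrays. This shift of 1.22 separated the genotypes (exact permutation p = 0.1, the smallest that 3 against 3 arrays can give). Ccnd1 minus Ccnd3 shifted by 1.57, with −0.74, −0.45 and −0.72 on SRF-null arrays against −1.11, −3.27 and −2.23 on control arrays (exact permutation p = 0.1, again the smallest possible). Ccnd2 minus Ccnd3 shifted by 0.35 with overlapping groups (exact permutation p = 0.3). The first 2 shifts kept their sign without any 1 array, between 0.87 and 1.53 and between 1.03 and 2.13. Without both arrays that carry transcripts of 1 sex they were 0.82 and 1.09. At this number of arrays, 0 of the 3 shifts could pass 0.05. The unequal difference of Ccnd1 and its relatives is therefore a description of these 6 arrays.

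**Figure D2:**
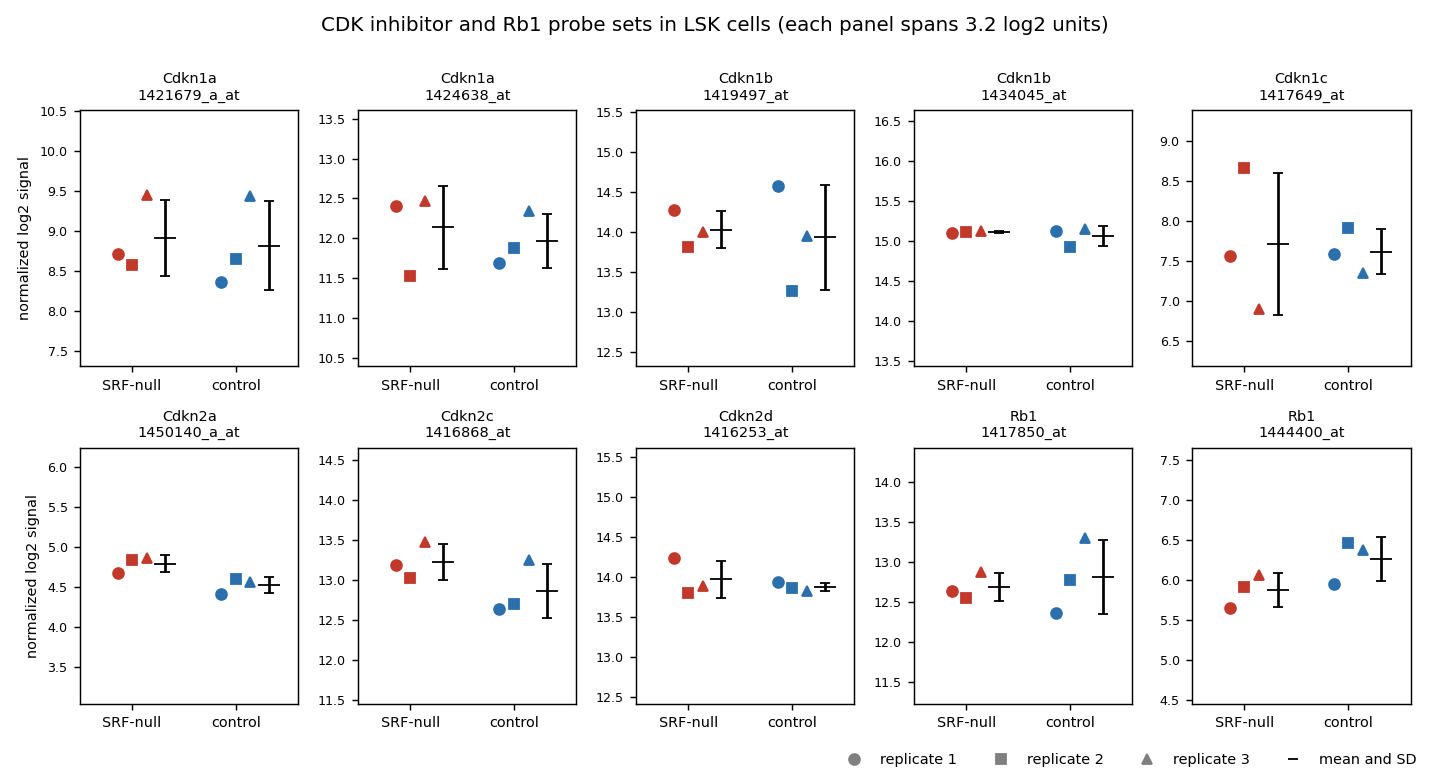
Normalized log2 signal (vertical axis) of the 8 CDK inhibitor and 2 Rb1 probe sets on the 3 SRF-null (red, left) and 3 control (blue, right) arrays, with the replicate number as the symbol and the mean and SD as bars. The groups overlap in every panel but that of Cdkn2a, which lies at the dim end of the scale.

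The Cip/Kip inhibitors did not differ between the genotypes beyond the spread between arrays. Their 5 probe sets gave differences from 0.05 to 0.16, all above 0 (50.0% of all probe sets were), and 0 of 5 had an unadjusted p under 0.05. Cdkn1a encodes p21, the inhibitor that p53 induces. Its brighter probe set, 1424638_at, had log2 signals of 12.41, 11.53 and 12.47 in SRF-null cells, against 11.69, 11.88 and 12.35 in control cells. SRF-null replicate 2 was the lowest of all 6 arrays, and the difference of 0.16 (SE 0.31) had a 95% interval of −0.61 to 0.94. Without SRF-null replicate 2 it was 0.47, and without SRF-null replicate 3 it was 0.000338. The dimmer one, 1421679_a_at, differed by 0.10 (SE 0.36) and was highest on replicate 3 of both genotypes, at 9.46 in SRF-null and 9.44 in control cells. Cdkn1a also lies on chromosome 17, with 375 protein-coding genes between it and Srf.

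Cdkn1b encodes p27, which accumulates in resting cells. On its brighter probe set, 1434045_at, the log2 signals were 15.10, 15.12 and 15.13 in SRF-null cells, against 15.13, 14.92 and 15.15 in control cells. This was among the narrowest intervals of all members, −0.26 to 0.36, around a difference of 0.05 (SE 0.13). The other probe set, 1419497_at, varied more among controls, with 14.57, 13.26 and 13.95 in control cells beside 14.27, 13.81 and 14.00 in SRF-null cells, and its difference was 0.10 (SE 0.35). That difference turned to −0.24 without control replicate 2, and to −0.36 where SRF-null replicate 1 was left out too.

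Cdkn1c encodes p57, an inhibitor from an imprinted gene known from quiescent hematopoietic stem cells. Its 1 probe set had 7.57, 8.66 and 6.91 in SRF-null cells, against 7.59, 7.91 and 7.35 in control cells. SRF-null cells held both the highest and the lowest of the 6 arrays, and the SD was 0.89 in SRF-null and 0.28 in control cells. The difference of 0.10 (SE 0.45) had the 95% interval −1.02 to 1.21, which reaches a 2-fold change in either direction, so these arrays could not detect one. It was −0.38 without SRF-null replicate 2.

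The INK4 inhibitors had differences from 0.10 to 0.36 on 1 probe set each, and 0 of 3 passed. Cdkn2c, which encodes p18, had log2 signals of 13.18, 13.01 and 13.47 in SRF-null cells, against 12.63, 12.70 and 13.24 in control cells. Control replicate 3 lay among the SRF-null arrays, and each number pair was higher in the SRF-null array, by 0.55, 0.32 and 0.22. The difference was 0.36 (SE 0.22, 95% interval −0.18 to 0.91, limma adjusted p = 1.00). Cdkn2d, which encodes the p19 protein of the INK4 family, had 14.24, 13.80 and 13.88 in SRF-null cells, against 13.93, 13.87 and 13.83 in control cells. All but SRF-null replicate 1 lay within a narrow band, and the difference was 0.10 (SE 0.16).

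Cdkn2a encodes p16 INK4a and, from another first exon and reading frame, the p19 ARF protein, and is known to be kept silent in young stem cells by Polycomb proteins. Its probe set had deposited intensities of 9.33, 12.95 and 13.31 on SRF-null arrays, against 5.23, 7.86 and 7.73 on control arrays. All 6 were under 16, the value added before the log2 step, as were 26.0% to 26.9% of all probe sets on each array. The SRF-null arrays were all above the controls, by 0.27 in log2 signal (SE 0.13, 95% interval −0.05 to 0.58, limma adjusted p = 1.00). At this brightness the size depends on the added value, and no statement on expression of Cdkn2a is made from it. No source used here states which of its transcripts the probe set reads.

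Rb1, which encodes RB, was measured on 1 bright and 1 dim probe set. The bright one, 1417850_at, had log2 signals of 12.64, 12.55 and 12.89 in SRF-null cells, against 12.37, 12.78 and 13.30 in control cells. The controls lay on both sides of the SRF-null arrays, and the difference was −0.12 (SE 0.26, 95% interval −0.76 to 0.51). The dim one, 1444400_at, had 5.65, 5.92 and 6.07 in SRF-null cells, against 5.96, 6.46 and 6.38 in control cells. It was lower in each number pair, by −0.30, −0.55 and −0.31, with a difference of −0.39 (SE 0.20, limma adjusted p = 1.00). With the replicate number as a block its unadjusted p was under 0.05 (limma adjusted p = 0.700).

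**Figure D3:**
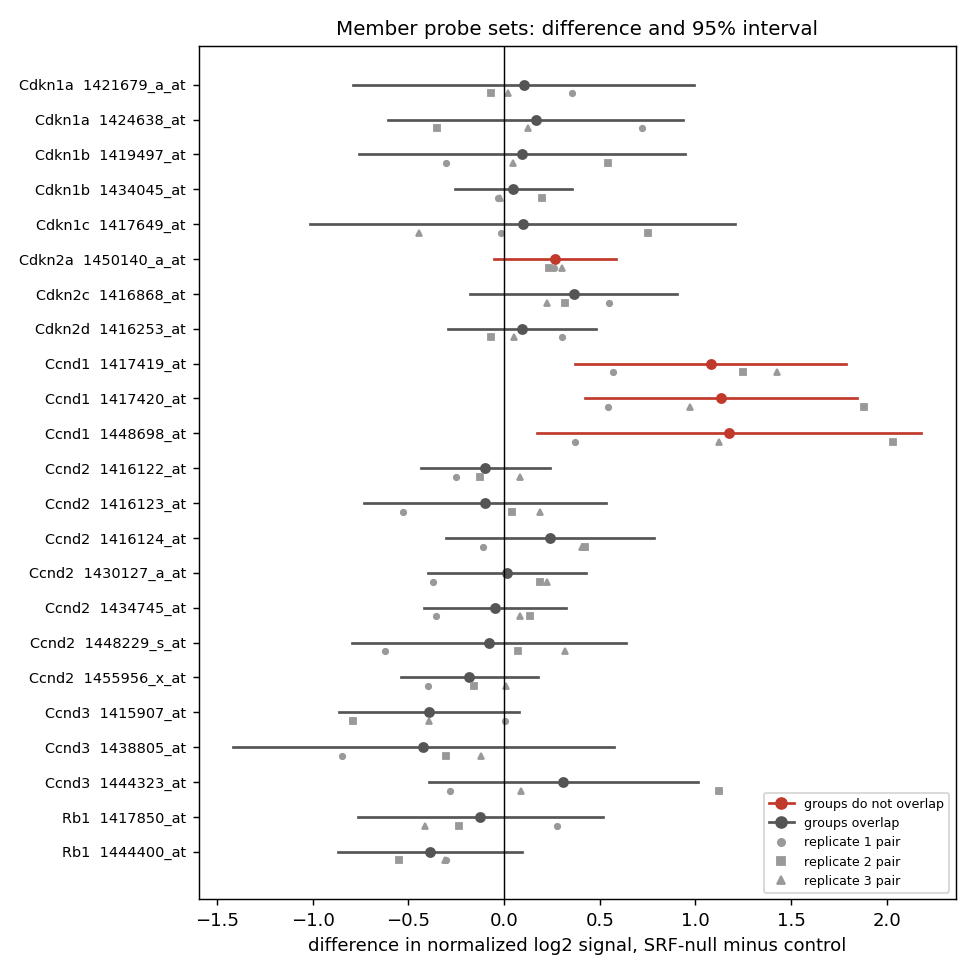
Difference in normalized log2 signal, SRF-null minus control (horizontal axis), for each of the 23 probe sets (rows), with its 95% interval as a line and the 3 number pairs as grey symbols. The intervals of the 3 Ccnd1 probe sets lie above 0, those of the other 20 include 0, and red marks the 4 probe sets, those of Ccnd1 and Cdkn2a, whose groups do not overlap.

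Over the 23 probe sets the highest value fell on SRF-null replicate 3 in 10 and the lowest on control replicate 2 in 10. The same count was not made over all probe sets, so it is not shown to be a trait of these genes. Probe sets of 1 gene, such as the 7 of Ccnd2, are also not independent. In the plot of differences with their 95% intervals, only the 3 Ccnd1 intervals leave out 0, before any adjustment over all probe sets. The largest difference of an inhibitor was 0.36, that of Cdkn2c, which ranged from 0.24 without SRF-null replicate 3 to 0.56 without control replicate 3.

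The genes around this switch were read on their brightest probe sets, in 5 lists that hold 96 genes, 94 of them measured. By limma, 0 of the 94 passed an adjusted p of 0.05, and 2 (2.13%), 1 in each direction, had an unadjusted p under 0.05, where 4.95% of all 18193 genes did (2.58% higher and 2.37% lower). Groups that did not overlap were found for 6 of the 94 (6.38%), 2 higher and 4 lower, and for 10.6% of all genes. List medians lay between −0.04 and 0.00, beside −0.01 over all genes. Among CDKs, their other cyclins and activators, 8 of 16 genes were higher, as were 48.6% of all genes, and 8 lower, with 0 under 0.05. The smallest p there belonged to Ccna2, the cyclin of S phase and G2, at 15.84 ± 0.14 in SRF-null and 15.55 ± 0.30 in control cells (difference 0.29, SE 0.19). Cdc37, a chaperone partner that loads CDK4 onto HSP90, differed by −0.21 (SE 0.18), and Ccnh, the cyclin of the CDK-activating kinase, by −0.10 (SE 0.13).

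Among the RB family, E2F and DP factors 9 of 18 genes were higher and 9 lower, with 0 under 0.05. E2f2, an activating E2F, was at 11.58 ± 0.19 in SRF-null and 10.95 ± 0.54 in control cells (difference 0.63, SE 0.29), the repressor gene E2f6 differed by −0.27 (SE 0.17) and the late cell cycle repressor gene E2f8 by 0.29 (SE 0.21). The S phase genes that E2F factors drive had 11 of 22 members higher and 11 lower, with 0 under 0.05 and differences from −0.18 to 0.35. Gins1, a part of the replicative helicase, was the highest (0.35, SE 0.16), with no overlap between genotypes, where 5.16% of all genes were higher in that way. Mcm7, also of that helicase, was lower in SRF-null cells with no overlap either (−0.14, SE 0.11), and Mcm4 differed by −0.12 (SE 0.13). The other probe set of Gins1 differed by 1.01, and that of Mcm4 by 0.099, the opposite sign.

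The list on turnover of D cyclins and Cip/Kip inhibitors had 8 of 19 genes higher and 11 lower, and 1 with an unadjusted p under 0.05. This was Fbxo4, which encodes an F-box protein reported to direct cyclin D1 to degradation. It had log2 signals of 10.30, 10.24 and 10.39 in SRF-null cells, against 10.79, 10.77 and 11.07 in control cells (difference −0.57, SE 0.14, limma adjusted p = 0.988), but its second probe set differed by 0.54, in the opposite direction. Ambra1, a second ligase adaptor for D cyclins, differed by −0.21 (SE 0.15), with both of its other probe sets of opposite sign. Dyrk1a, a kinase that marks D cyclins for degradation, differed by 0.17 (SE 0.13), with 1 of its other 2 probe sets of opposite sign. Regulators of the Cdkn2a locus had 8 of 19 genes higher and 11 lower. Ets1, whose product is known to activate CDKN2A in human fibroblasts, had 14.12, 13.95 and 13.98 in SRF-null cells, against 13.53, 13.26 and 13.62 in control cells (difference 0.54, SE 0.15, limma adjusted p = 1.00). Its other 3 probe sets differed by 0.51 to 0.69. The Polycomb gene Eed was lower in SRF-null cells with no overlap (−0.35, SE 0.18), where 5.45% of all genes were lower in that way. Tbx3 was dim (−0.27, SE 0.15), with 2 of its other 4 probe sets of opposite sign.

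**Figure D4:**
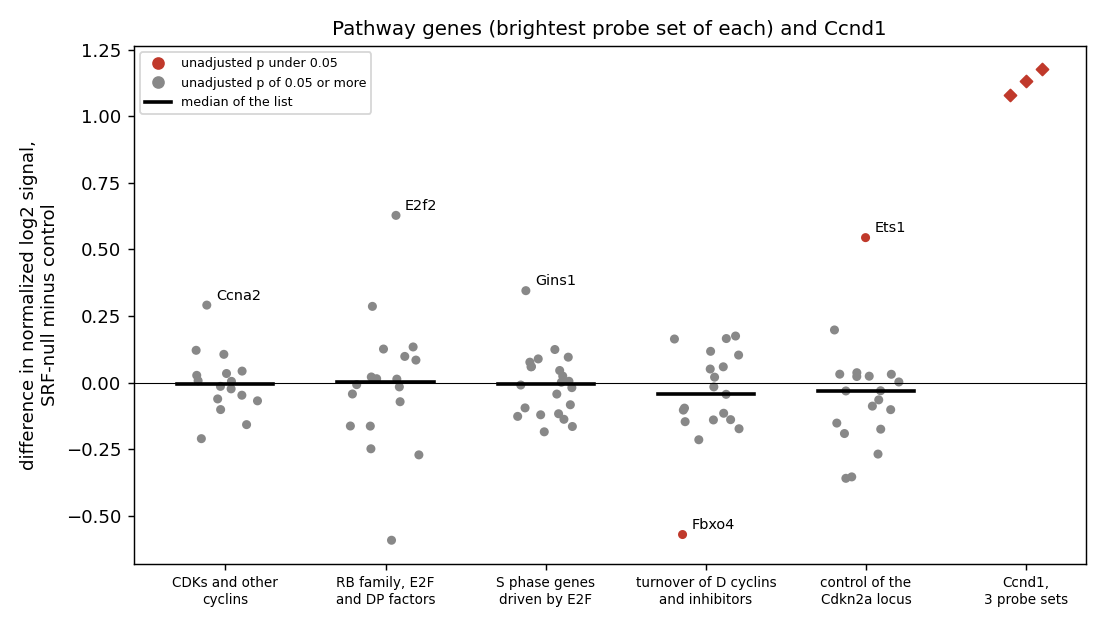
Difference in normalized log2 signal, SRF-null minus control (vertical axis), of each measured gene in 5 pathway lists (columns of dots, brightest probe set of each gene) and of the 3 Ccnd1 probe sets (diamonds, right). Red marks an unadjusted limma p under 0.05, black bars are list medians, which lie between −0.04 and 0.00, and the gene with the smallest p in each list is named.

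The promoters of the members were searched for the CArG box that SRF binds and for an E2F site, since both factors bear on this gene group. RefSeq promoters of GRCm38.p6, 300 bases each, were at hand for 6 of the 10 genes (Cdkn1a, Cdkn1b, Cdkn2a, Cdkn2c, Cdkn2d and Ccnd3), with 10 promoters in all. The CArG box, searched on both strands with no mismatch, was in 0 of these 10 and in 1.63% of all 32851 promoters. An E2F site, spelled TTTGGCGC, TTTCCCGC, TTTGCCGC or TTTCGCGC on either strand, was in 1 of the 10 and in 2.26% of all promoters. The 2 stretches below show what the search finds, with matches in capitals. The first, from the promoter of Srf itself (chr17:46556190-46556269, minus strand), holds 2 CArG boxes, which begin 82 and 62 bases before a RefSeq transcription start. The second, from the promoter at the upstream start of Cdkn2a (chr4:89294686-89294743, minus strand), holds the E2F site, 99 bases before that start.
Srf: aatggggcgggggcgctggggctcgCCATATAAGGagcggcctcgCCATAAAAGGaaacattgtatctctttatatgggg
Cdkn2a: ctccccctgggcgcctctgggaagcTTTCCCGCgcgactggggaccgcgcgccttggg
A match is a run of letters and not evidence of binding, and a promoter without one may be bound elsewhere.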

How the data were processed

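RNA from 6 pools of sorted LSK cells was hybridised to Affymetrix arrays. The authors deposited a linear intensity for each probe set on each array, a unit read from the values. The summary algorithm, background correction and scaling were not given in the sources used here, and the study's description and the platform annotation differ on the array type. Of 45101 probe sets, 64 array controls were left out. Gene names are those of the platform annotation, and 10 of 10 members were found by gene ID in RefSeq (GRCm38.p6, used for gene order and promoters). No detection calls and no filter on dim probe sets were used.

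Intensities were converted to log2(value + 16), which understates differences of dim probe sets, and quantile normalized, since array medians differed by more than 0.1. Genotypes were compared with limma 3.58.1 in R 4.3.3 (lmFit, eBayes, genotype as the only term, moderated test on both sides), with Benjamini-Hochberg adjustment over 45037 probe sets, a threshold of 0.05 and 95% intervals from the same fit. Single values were compared with exact permutation tests. The script was tested on simulated data. Figures were drawn with matplotlib 3.10.9.

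Named are all members, Srf, Kit, and the 3 genes with the smallest p in each pathway list. Sex-linked genes and the markers Pdgfrb, Col1a2, Cd3g, Cd4, Csf1r, Mrc1, C1qa, C1qb, Adgre1 and Cd14 were named after their values were seen. Members and lists were chosen with earlier results of these data known, and no list was tested as a set. Whether pools share animals is not given, so p-values measure the spread between these arrays, whose number limits the precision. Replicate numbers 1 to 3 occur in both genotypes. Deviations from the group means correlated by 0.47, 0.21 and 0.43 within equal numbers over all probe sets, so the numbers were taken to pair the arrays. This pairing comes from the data, not from the labels, and the main fit did not use it, only the fit with the replicate block. Unequal numbers correlated by −0.42 to 0.01. The alternatives were other offsets, normalizations and variance models, a filter on dim probe sets, 1 probe set per gene, the replicate number as a block, and leaving out arrays.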

Additional observations from a re-analysis of the deposited data

How the results depend on the processing

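Under the alternatives run, 0 members and 0 pathway genes passed the adjusted threshold by limma. The 3 Ccnd1 differences kept their sign in every alternative, with ranges over leaving out 1 array of 0.85 to 1.33 (1417419_at), 0.84 to 1.41 (1417420_at) and 0.73 to 1.58 (1448698_at). With the replicate number as a block, their limma adjusted p-values were 0.580, 0.632 and 0.665, and 0 calls at the adjusted threshold changed. Over all probe sets the adjusted threshold was passed by 1 after median centring (Mocs1) and by 0 to 1 without 1 array (Ccnb1ip1 without control replicate 2), both named after their values were seen. The number with an unadjusted p under 0.05 was 3189 with the replicate block, 1230 after median centring, 1291 without both arrays that carry transcripts of 1 sex, and 1426 to 3428 without 1 array. It was 1127 among probe sets above the median level and 1042 with 1 probe set per gene, where fewer were tested. The cause of these shifts was otherwise not tested. Of 328 member values, 25 turned sign, none of them of Ccnd1, Ccnd3, Cdkn2a or Cdkn2c. Outside leaving out 1 array, Ccnd2 1430127_a_at turned to −0.023 after median centring and −0.00178 without normalization. Without both arrays of 1 sex, Cdkn1a 1424638_at turned to −0.019, Cdkn1b to −0.36 and −0.015 and Cdkn2d to −0.040. Leaving out 1 array gave −0.30 to 0.038 (1416123_at), −0.082 to 0.16 (1430127_a_at), −0.14 to 0.051 (1434745_at) and −0.33 to 0.076 (1448229_s_at) for Ccnd2. For the others that turned it gave −0.17 to 0.41 for Cdkn1a 1421679_a_at, −0.24 to 0.42 and −0.023 to 0.089 for Cdkn1b, −0.38 to 0.50 for Cdkn1c, −0.036 to 0.18 for Cdkn2d and −0.35 to 0.12 for Rb1 1417850_at. Among members that kept their sign, it gave −0.82 to −0.17 and 0.071 to 0.50 for Ccnd3 1438805_at and 1444323_at, −0.55 to −0.29 for 1415907_at, 0.00034 to 0.47 for Cdkn1a 1424638_at, 0.24 to 0.56 for Cdkn2c, 0.21 to 0.32 for Cdkn2a, −0.53 to −0.27 for Rb1 1444400_at, and −0.19 to −0.048, 0.072 to 0.34 and −0.26 to −0.11 for Ccnd2 1416122_at, 1416124_at and 1455956_x_at. The Gapdh 3′ minus 5′ difference, −0.13 with all arrays, ranged from −0.24 to 0.000891. No setting moved the median of all probe sets by more than 0.1. Dim probe sets, those of Cdkn2a above all, limit what can be read from these arrays.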
